A study of Mus musculus with 4 samples.

Results

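The 6 S100 genes S100a8, S100a9, S100a4, S100a6, S100a10 and S100a11 were followed across 4 single-cell libraries of mouse bone marrow and the cell classes within them. Members were taken by gene symbol: each of the 6 symbols had 1 row among 32285 gene features, and 17 S100 genes were listed in all. The cells were Kit+ CD45.2+ marrow cells, collected 10 weeks post-transplantation and profiled by CITE-seq, which reads RNA (as unique molecular identifiers, UMIs) and 15 DNA-barcoded antibodies in the same cells. There was 1 library for each of 4 labels: control, or deleted for Mll3, for Mll4 or for both (Mll3/4). The proteins Mll3 and Mll4, encoded by Kmt2c and Kmt2d, are histone methyltransferases that act mainly at enhancers. The allele, the driver of deletion, the number of mice per library and the meaning of the 2 hashtag antibodies are not given in the sources used here, so a difference between labels cannot be told apart from a difference between mice or preparations.

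S100 proteins are small calcium-binding proteins of the EF-hand type that mostly work as dimers. S100a8 and S100a9 pair to form calprotectin, which fills the cytosol of neutrophils and, once released, acts as an alarm signal through the receptors Tlr4 and Ager. The other members bind partners inside the cell: S100a4 binds non-muscle myosin (Myh9), S100a6 binds Cacybp, S100a10 forms a complex with annexin A2 (Anxa2), and S100a11 binds annexin A1 (Anxa1).

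The 6 genes lie on chromosome 3 in 2 groups (GRCm38, GENCODE M21). S100a4 (chr3:90603771-90606045), S100a6 (chr3:90612882-90624181) and S100a8 (chr3:90668978-90670035) are on the plus strand, and S100a9 (chr3:90692632-90695721) is on the minus strand. S100a11 (chr3:93520488-93526287) and S100a10 (chr3:93555080-93564643) follow further along, both on the plus strand. The 250 bases before the start of S100a8 and S100a9 are shown because these are the members whose levels set the neutrophil-like cells apart. The sequences are those of RefSeq on GRCm38.p6, which had an entry for 5 of the 6 members (not for S100a10), and are written 5′ to 3′ on the strand of the gene, S100a8 from chr3:90668821-90669070 and S100a9 from chr3:90695722-90695971. Capitals mark matches, on either strand, to TATAAA (the TATA box), TTNNGNAA (a core of C/EBP sites), GAGGAA (a core of PU.1 sites) and TGANTCA (the AP-1 site). C/EBP and PU.1 are transcription factors of myeloid cells.
S100a8: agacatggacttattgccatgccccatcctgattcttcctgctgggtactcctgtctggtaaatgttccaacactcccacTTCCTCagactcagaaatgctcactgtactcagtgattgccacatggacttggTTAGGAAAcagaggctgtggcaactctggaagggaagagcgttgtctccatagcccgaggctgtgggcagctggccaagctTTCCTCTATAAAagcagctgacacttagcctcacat
S100a9: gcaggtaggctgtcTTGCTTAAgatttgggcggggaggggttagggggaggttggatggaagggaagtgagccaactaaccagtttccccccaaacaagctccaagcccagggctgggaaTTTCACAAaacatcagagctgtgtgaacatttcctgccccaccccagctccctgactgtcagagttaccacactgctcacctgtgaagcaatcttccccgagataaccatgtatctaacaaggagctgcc
Starts are those of RefSeq. GENCODE's interval for S100a8 begins at chr3:90668978, within the window printed, so the window from there on lies in the gene as GENCODE gives it. That stretch holds the TATAAA match and the nearer of the GAGGAA matches of S100a8. The S100a8 window held TATAAA 30 bases before the start, GAGGAA at 36 and 170 bases and TTNNGNAA at 117 bases, with no overlap between matches. The S100a9 window held TTNNGNAA at 130 and 236 bases and none of the other 3. Over 32851 RefSeq promoters of the same length, 12.4% held TATAAA, 36.8% TTNNGNAA, 23.3% GAGGAA and 6.75% TGANTCA. In the windows of the other members, S100a4 held TATAAA at 31 bases, S100a11 held GAGGAA at 153 bases and TGANTCA at 38 and 136 bases, and S100a6 held none of the 4.

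After filtering, 7146 control, 5860 Mll3-labelled, 5350 Mll4-labelled and 6917 Mll3/4-labelled cells were kept, with medians of 15754, 16964, 5142 and 9965 UMIs per cell. The label check was mixed. Kmt2c stood at 47.9 CPM (counts scaled to the summed UMIs of the cells) in control, 27.2 in the Mll3-labelled, 59.2 in the Mll4-labelled and 34.8 in the Mll3/4-labelled library. Kmt2d stood at 25.8, 21.6, 25.0 and 24.7 CPM in the same order, so its level did not separate the libraries labelled as deleted for Mll4; counts from the 3′ end need not show the loss of an internal exon. Xist was at 0.519 CPM in the Mll4-labelled library and at 955 to 1839 CPM in the others, so the sex of the cells and the label cannot be told apart there. Kit, the gene of the sorted marker, was present in all 4 libraries (105 to 190 CPM), yet cells with the neutrophil markers of later maturation were kept too. Between 3 and 15 kept barcodes were shared by any pair of libraries.

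Calprotectin genes marked 1 class of cells. Neutrophil-like cells, named from 8 markers such as Camp, Ngp and Retnlg with no S100 gene among them, held 97.6% of all S100a8 counts in control, 95.5% in the Mll3-labelled and 98.0% in the Mll4-labelled library. S100a8 stood there at 92682 CPM in control, 97091 in the Mll3-labelled and 133950 in the Mll4-labelled library. S100a9 stood at 156540, 143170 and 151430 CPM. Together the 2 transcripts made up 24.9%, 24.0% and 28.5% of all their UMIs. The Mll3/4-labelled library had 23 neutrophil-like cells, too few for a comparison; they held 89.9% of its S100a8 counts, and the pair made up 26.2% of their UMIs.

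The level of calprotectin over all kept cells differed between libraries, as did the size of the neutrophil-like class. Neutrophil-like cells were 24.5% of kept cells in control (95% exact binomial interval 23.5 to 25.5), 17.1% (16.1 to 18.1) in the Mll3-labelled, 50.2% (48.8 to 51.5) in the Mll4-labelled and 0.333% (0.211 to 0.499) in the Mll3/4-labelled library. These and all later intervals cover counting error only. S100a8 over all kept cells was 14795 CPM in control, 10566 in the Mll3-labelled, 58428 in the Mll4-labelled and 771 in the Mll3/4-labelled library. S100a9 was 24921, 15475, 65845 and 1079 CPM. The order of the libraries was the same for both genes and for the share of neutrophil-like cells, but the place of the Mll3-labelled library under control rests on 1 hashtag. There, neutrophil-like cells were 358 of 3119 cells under hashtag 1 and 614 of 2495 under hashtag 2, and S100a8 was 6684 and 15958 CPM, where the control hashtags gave 15464 and 13963 CPM.

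**Figure D1:**
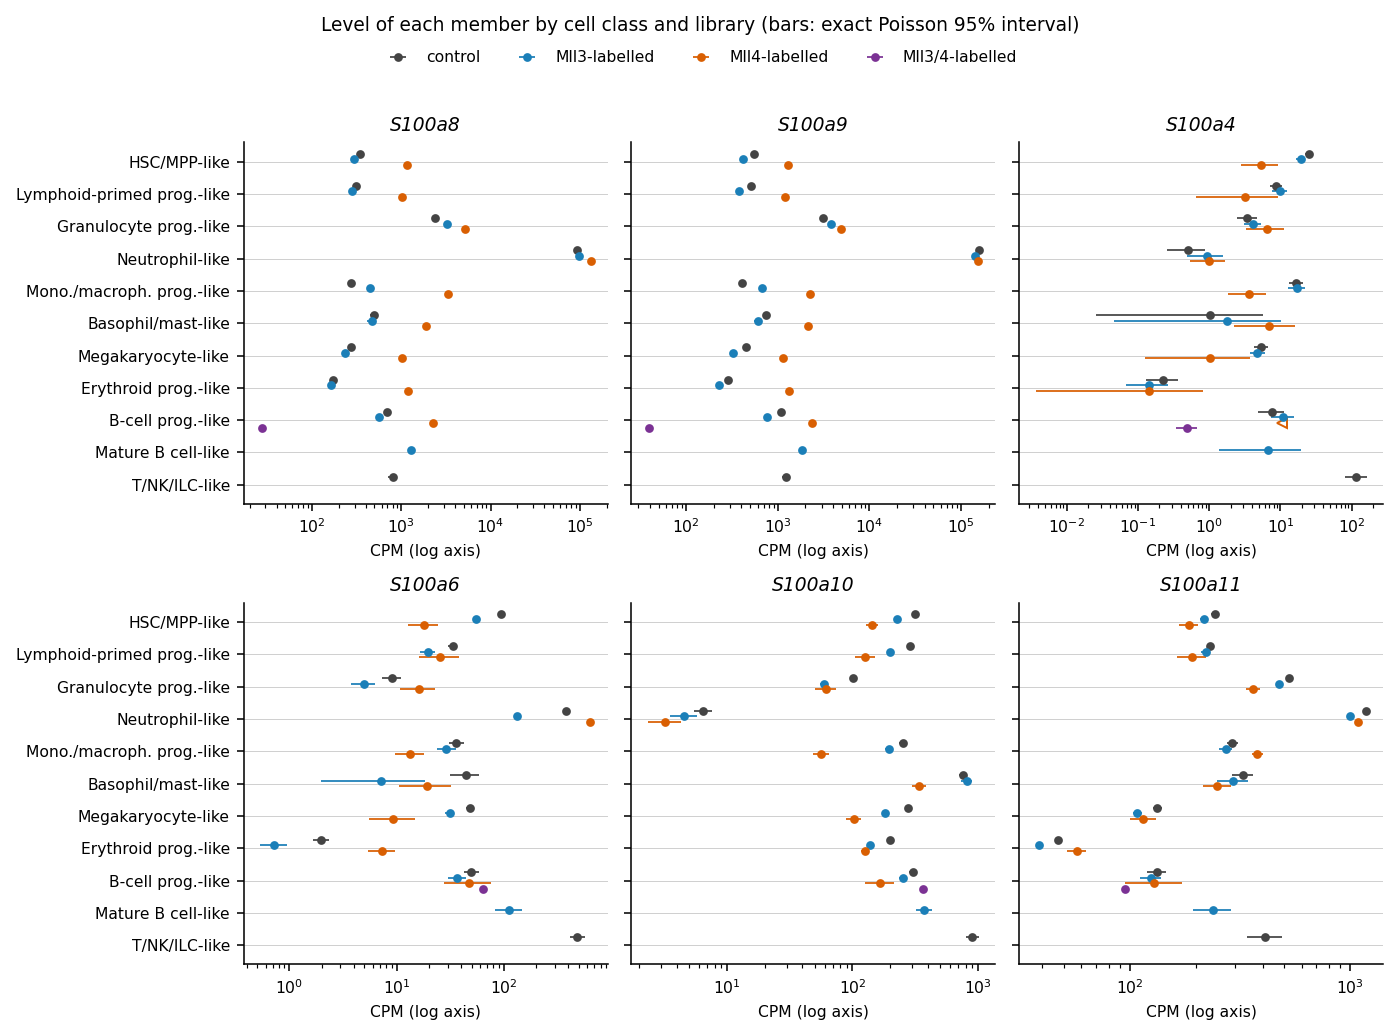
Level of each S100 gene by cell class and library, as CPM of summed counts on a log axis; points are 1 library each, bars are 95% exact Poisson intervals (counting error only), and an open left-pointing triangle is the upper bound where no count was seen (S100a4 in Mll4-labelled B-cell progenitor-like cells). S100a8 and S100a9 peak in neutrophil-like cells at 92682 CPM or more, where S100a10 has its lowest level.

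With 1 library per label no test between labels was possible. A gene was therefore called higher or lower when its CPM, after adding 1 CPM to both sides, differed from control at least 2-fold, with at least 20 counts in either library; log2 ratios below are on that scale. Over all kept cells of the Mll3-labelled library, 0 of the 6 members were called higher (0.199% of all genes measured were) and 1 lower, S100a6 (0.46% of all genes). In the Mll4-labelled library 3 were called higher, S100a8, S100a9 and S100a6 (5.74% of all genes), and 1 lower, S100a10 (2.91%). In the Mll3/4-labelled library 0 were called higher (12% of all genes) and 4 lower, S100a8, S100a9, S100a4 and S100a11 (11.7%). The median log2 ratio of the 6 members was -0.49, 1.17 and -1.38 in the 3 libraries, where that of all genes measured was -0.04, 0.02 and -0.01. All 3 comparisons share the control library. When the class levels of the Mll4-labelled library were weighted by the class shares of control, the log2 ratio of S100a8 went from 1.98 to 0.56, that of S100a6 from 1.86 to 0.50 and that of S100a9 from 1.40 to -0.02.

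Within neutrophil-like cells neither calprotectin gene was called. The log2 ratio of S100a9 to control was -0.13 in the Mll3-labelled and -0.05 in the Mll4-labelled library, and that of S100a8 was 0.07 and 0.53. The count ratio of S100a8 to S100a9 was 0.592 in control, 0.678 in the Mll3-labelled and 0.885 in the Mll4-labelled library, with intervals that do not overlap. Per cell, S100a8 averaged 1266, 1372 and 699 UMIs, at median depths of 13596, 14088 and 4903 UMIs. The Mll4-labelled cells carried fewer S100a8 molecules in a shallower library, and a larger share of their UMIs.

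S100a6, a regulator of the cytoskeleton and of cell growth, stood at 380 CPM in control neutrophil-like cells, 132 in the Mll3-labelled and 638 in the Mll4-labelled library. The Mll3-labelled level was 2.87-fold lower than control, the only 1 of 5 measured members called in that class (lower in 0.332% of all genes, higher in 0.283%). The Mll4-labelled level was higher by a log2 ratio of 0.75, under the 2-fold mark, and 0 of 5 members were called there (2.93% of all genes were higher and 1.98% lower). S100a10 had the largest difference in the Mll4-labelled library, at 6.44 CPM in control (154 counts), 4.53 in the Mll3-labelled (64 counts) and 3.21 in the Mll4-labelled library (45 counts). Its log2 ratio of -0.82 in the last was called lower with no pseudocount, with thinning to 2000 UMIs per cell (-1.10) and with no doublet removal (-1.92). For S100a6 the 2 hashtags differed more within the Mll3-labelled and Mll4-labelled libraries than in control. S100a6 was 385 and 379 CPM under hashtags 1 and 2 in control, 80.8 and 165 in the Mll3-labelled and 417 and 823 in the Mll4-labelled library. Both Mll3-labelled values lay under both control values, and both Mll4-labelled values lay above them.

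S100a6 also differed with the maturity of neutrophil-like cells. Cells were split by Retnlg and Mmp8, genes of late neutrophils, after thinning each cell to 2000 UMIs: 366 control cells had at least 1 such UMI and 1382 had none. S100a6 was 704 against 304 CPM across that split in control, 381 against 106 in the Mll3-labelled and 1264 against 406 in the Mll4-labelled library, log2 ratios of 1.21, 1.84 and 1.64. With the split at 3 such UMIs the log2 ratios were 3.12, 4.47 and 2.49, from 70 control and 248 Mll4-labelled cells and under 50 Mll3-labelled cells at or above it. S100a11 was 1294 against 1142, 1139 against 984 and 1350 against 975 CPM. S100a8 differed by no more than a log2 ratio of 0.03 and S100a9 by no more than 0.08 in any of the 3; with the split at 3 UMIs the largest was 0.14, for S100a9 in the Mll4-labelled library. In the Mll4-labelled library S100a6 was 1656 CPM in cluster 11, led by Retnlg and Mmp8, against 375 in cluster 2. Cluster 11 held 40 control and 16 Mll3-labelled cells, under the minimum of 50, so this order was not read in those libraries. Cluster 13, led by Ifitm6, had neither Retnlg nor Mmp8 among its 10 leading genes. S100a6 was 608 CPM there against 242 in cluster 1 of control, and 198 against 82.8 in the Mll3-labelled library. Control neutrophil-like cells thus sat in other clusters than Mll4-labelled ones. The share of cells at or above the split also differed, 109 of 996 in the Mll3-labelled and 723 of 2648 in the Mll4-labelled library; its part in the difference in S100a6 between libraries was not tested. On each side of the split at 1 UMI the Mll3-labelled level was the lowest and the Mll4-labelled level the highest of the 3. Below the split at 3 UMIs S100a6 was 322 CPM in control, 109 in the Mll3-labelled and 470 in the Mll4-labelled library. At or above 3 UMIs the Mll4-labelled level was not the highest. It was 2638 CPM (interval 2538 to 2741), against 2813 CPM (2676 to 2955) in control.

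**Figure D2:**
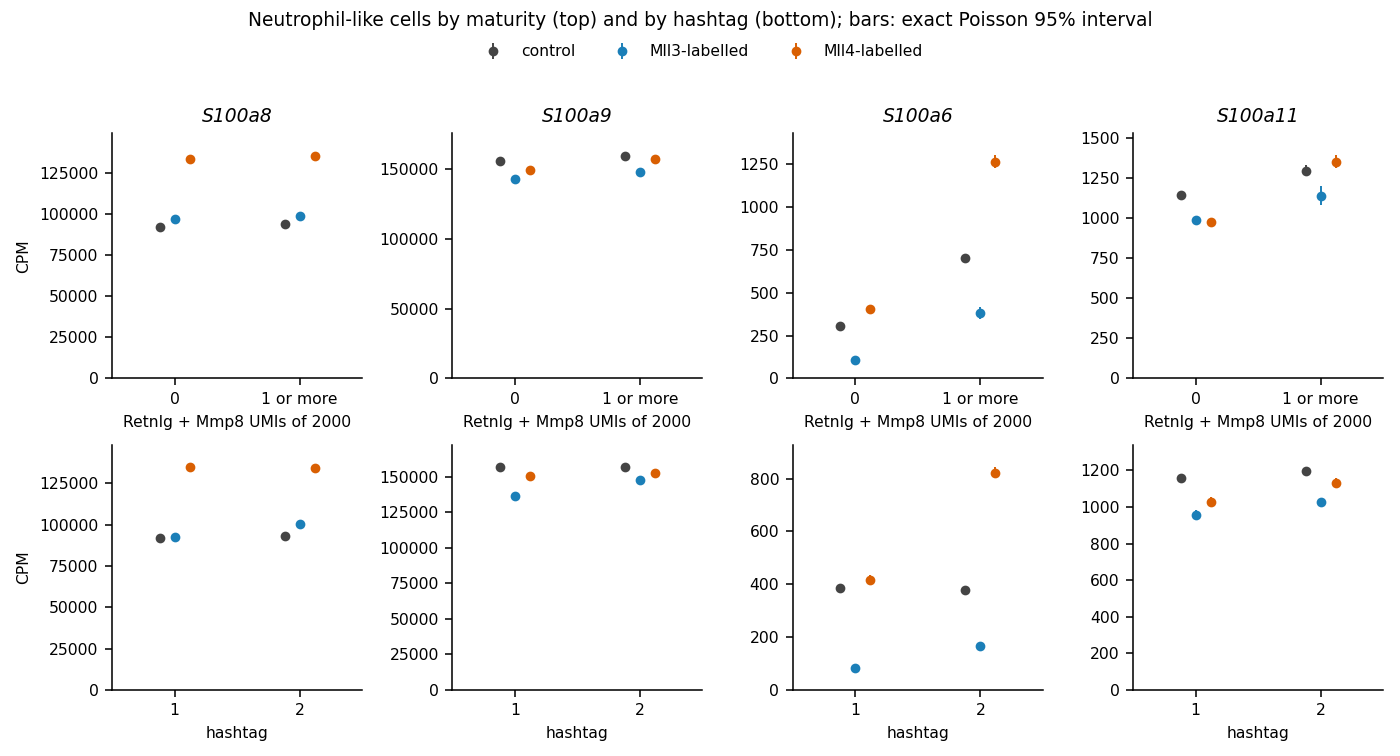
S100a8, S100a9, S100a6 and S100a11 in neutrophil-like cells, in CPM with 95% counting intervals, by library and the presence of Retnlg or Mmp8 UMIs (top) or hashtag (bottom). S100a6 is higher in cells with at least 1 Retnlg or Mmp8 UMI in each of the 3 libraries (704 against 304 CPM in control), and S100a8 and S100a9 are nearly level.

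Other classes carried a low and even amount of calprotectin RNA. In control, 9 classes other than neutrophil-like and granulocyte progenitor-like cells averaged 4.64 to 7.47 S100a8 UMIs per cell, although their median depths ran from 2670 to 46928 UMIs. Mature B cell-like cells, among these classes, had 22 control cells, under the minimum of 50 used for comparisons. Haematopoietic stem and multipotent progenitor (HSC/MPP)-like cells had a median of 5 S100a8 UMIs and at most 17 in a cell. The S100a8 to S100a9 count ratio of these classes lay near that of each library's neutrophils: 0.622 in HSC/MPP-like and 0.596 in erythroid progenitor-like cells of control (neutrophil-like 0.592), 0.710 and 0.713 in the Mll3-labelled (0.678), and 0.905 and 0.885 in the Mll4-labelled library (0.885). It was not equal in all of them. In the Mll3-labelled library the counting interval lay above the neutrophil-like ratio in lymphoid-primed progenitor-like (0.703 to 0.787) and erythroid progenitor-like cells (0.696 to 0.731). The same held there for B-cell progenitor-like (0.698 to 0.794) and megakaryocyte-like cells (ratio 0.737). In control the interval lay above it in HSC/MPP-like, B-cell progenitor-like (0.593 to 0.661) and basophil/mast-like cells (0.597 to 0.755). Control monocyte/macrophage progenitor-like cells had 0.683 (0.634 to 0.735), also above it. Among the other such classes with at least 50 cells in these libraries, only Mll4-labelled monocyte/macrophage progenitor-like cells, described below, had an interval clear of the ratio. Scaling S100a9 from S100a8 by the neutrophil-like ratio gave 105% of the S100a9 counts seen in HSC/MPP-like cells of control, 105% in the Mll3-labelled and 102% in the Mll4-labelled library. The granule genes followed less closely: the same scaling gave 130% of the Camp, 175% of the Ngp, 128% of the Ltf and 161% of the Lcn2 counts of control HSC/MPP-like cells. S100a8 stood there at 1.08 counts per count of these 4 genes, against 0.748 in neutrophil-like cells; in the Mll3-labelled library it was 1.08 against 0.789, and with Mll4-labelled cells 1.40 against 1.39. In the Mll3/4-labelled library, with 23 neutrophil-like cells, B-cell progenitor-like cells averaged 0.304 S100a8 UMIs. Such counts cannot be told apart from free RNA of neutrophils; no profile of empty droplets was analysed here.

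**Figure D3:**
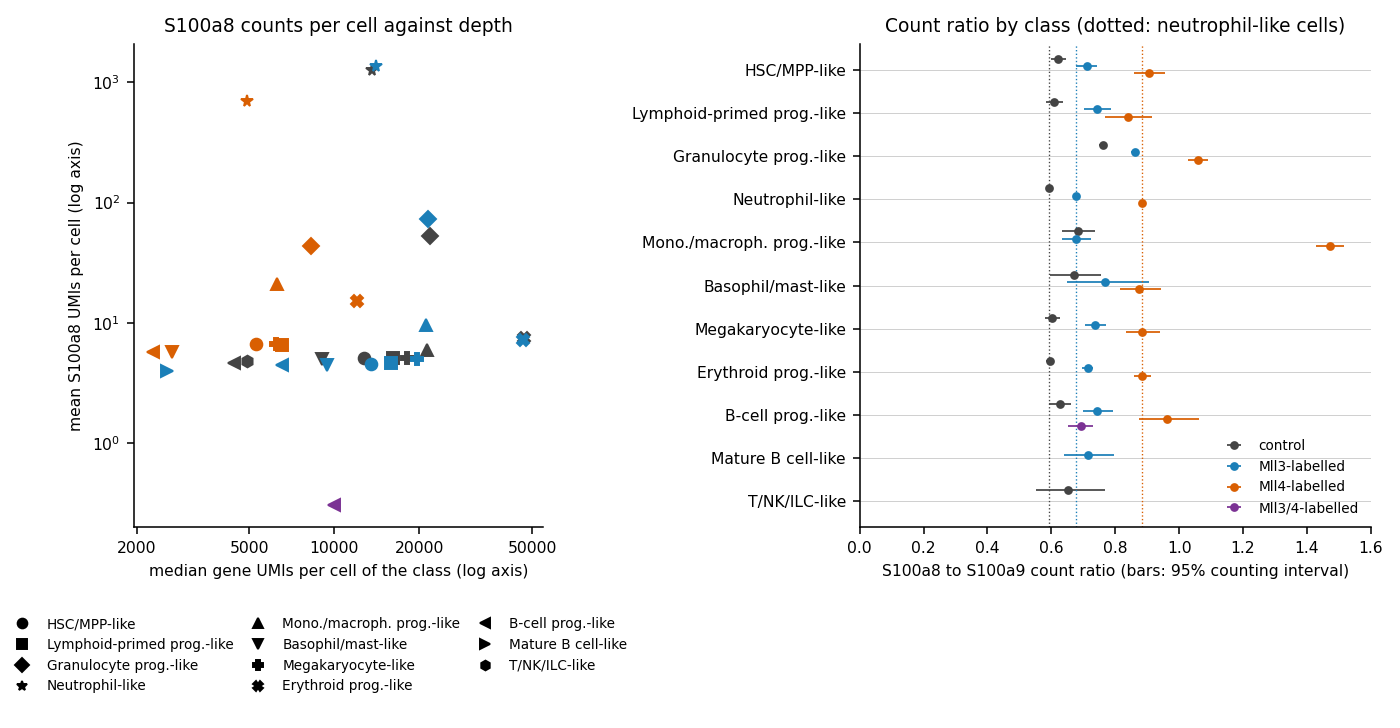
Left, mean S100a8 UMIs per cell against the median depth of each class (both axes log; 1 point per class and library); right, the S100a8 to S100a9 count ratio with 95% counting intervals, dotted lines marking the ratio in neutrophil-like cells of the same library. Most classes lie between 4 and 8 UMIs per cell whatever their depth, and most ratios lie near the dotted line without all intervals meeting it; the largest departures are in granulocyte progenitor-like cells and the Mll4-labelled monocyte/macrophage progenitor-like cells.

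S100a8 and S100a9 were also called in classes outside granulocytes, beside neutrophil markers. In HSC/MPP-like cells S100a8 was 344 CPM in control, 298 in the Mll3-labelled and 1168 in the Mll4-labelled library, and S100a9 was 552, 419 and 1291 CPM. Both were called higher in the Mll4-labelled library (3.7% of all genes were) by log2 ratios of 1.76 and 1.22, beside neutrophil markers whose summed level went from 320 to 847 CPM with 7 of 8 detected, Mmp8 being at 0. The mean count of S100a8 per cell was 5.10 in control and 6.74 in the Mll4-labelled library. In B-cell progenitor-like cells S100a8 was 685 CPM in control, 566 in the Mll3-labelled, 2282 in the Mll4-labelled and 27.3 in the Mll3/4-labelled library, while the neutrophil markers summed to 649, 464, 1710 and 14.5 CPM. S100a8 and S100a9 were called higher there in the Mll4-labelled (8.16% of all genes) and lower, 24.2-fold and 27.0-fold, in the Mll3/4-labelled library (7.38%). These calls move with the neutrophil share and with the neutrophil markers, and cannot be told apart from free RNA.

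In 2 classes S100a8 went beyond this even level with a count ratio away from that of neutrophil-like cells. Mll4-labelled erythroid progenitor-like cells also had more, 8090 S100a8 counts in 537 cells, against 2615 in 388 HSC/MPP-like cells of that library. Their level was 1175 CPM against 172 in control, and their S100a8 to S100a9 count ratio was 0.885, as in neutrophil-like cells. Granulocyte progenitor-like cells, led by primary granule genes, averaged 53.2 S100a8 UMIs per cell in control, 73.5 in the Mll3-labelled and 43.3 in the Mll4-labelled library. The counts were spread unevenly: the median cell had 8, 9 and 10 UMIs, and the cell at the 90th percentile 122, 235 and 136. The S100a8 to S100a9 count ratio there was 0.761, 0.861 and 1.06, above that of neutrophil-like cells in each library. A share of these cells, then, carried far more S100a8 than the median cell, in all 3 libraries.

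Monocyte/macrophage progenitor-like cells, led by F13a1, Irf8 and Ccr2, went beyond the even level in the Mll4-labelled library. With a finer clustering (Leiden resolution 2) this class split by label. A cluster with Mpo and Cebpa among its leading genes held 498 Mll4-labelled cells and 1 control cell. Another, with Irf8 and Ly86 among them, held 203 control, 150 Mll3-labelled and 42 Mll4-labelled cells. The label and the cluster thus cannot be told apart in the values below. S100a8 was 274 CPM in the 203 control cells, 449 in the 153 Mll3-labelled cells and 3301 in the 528 Mll4-labelled cells. In the Mll3-labelled library 1 cell held 637 of the 1462 counts. S100a9 was 402, 663 and 2244 CPM. The median Mll4-labelled cell had 8 S100a8 UMIs against 5 in control, and the 90th percentile was 35 against 10, in spite of a median depth of 6249 against 21216 UMIs. The S100a8 to S100a9 ratio was 1.47 (interval 1.43 to 1.52) where neutrophil-like cells of that library had 0.885, and S100a8 stood at 4.56 counts per count of the neutrophil granule genes Camp, Ngp, Ltf and Lcn2 where they had 1.39. Neutrophil markers summed to 275 CPM in control and 740 in the Mll4-labelled library with 8 of 8 detected, and monocyte markers to 1871 and 2006 CPM. S100a8 was 2470 CPM under hashtag 1 and 4251 under hashtag 2, both above the control hashtags (284 and 267). Of the 6 members, 2 were called higher in this class, S100a8 (12.0-fold) and S100a9 (5.57-fold), where 7.3% of all genes were, and 3 lower, S100a10 (4.38-fold), S100a4 (3.86-fold) and S100a6 (2.57-fold), where 2.59% were.

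Among control classes with at least 50 cells, S100a4, linked to cell motility, was highest in T, NK and innate lymphoid-like cells, then in HSC/MPP-like cells. In control it was 116 CPM in the 50 T, NK and innate lymphoid-like cells and 25.0 in HSC/MPP-like cells, then 16.6 in monocyte/macrophage progenitor-like, 8.77 in lymphoid-primed progenitor-like and 7.57 in B-cell progenitor-like cells; the counting intervals of the last 2 overlap. Neutrophil-like and erythroid progenitor-like cells were at 0.502 and 0.227 CPM. HSC/MPP-like cells held 46.2% of the control counts of S100a4, 33.5% of the Mll3-labelled and 3.68% of the Mll4-labelled counts. In that class S100a4 was 25.0 CPM in control (336 counts), 19.1 in the Mll3-labelled (200 counts) and 5.36 in the Mll4-labelled library (12 counts), 4.08-fold lower. The 2 hashtags of the Mll4-labelled library gave 8.02 and 1.23 CPM, both under the control values of 23.9 and 26.8.

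Most S100a4 of the Mll4-labelled library lay elsewhere. A cluster of 107 Mll4-labelled cells that met no class rule, led by the MHC class II genes Cd74, H2-Eb1 and H2-Aa, held S100a4 at 737 CPM and S100a6 at 886 CPM, and the unnamed cells of that library held 75.5% of its S100a4 counts. Over all kept cells S100a4 was at 9.95 CPM in the Mll4-labelled library against 4.74 in control, the reverse of its order among HSC/MPP-like cells. That reversal is seen under hashtag 2 (18.4 CPM) and not under hashtag 1 (3.85 CPM), where control had 4.68 and 4.98 CPM. B-cell progenitor-like cells had S100a4 at 7.57 CPM in control, 10.8 in the Mll3-labelled and 0.488 in the Mll3/4-labelled library, 5.76-fold lower and the third member called lower there. Its call as lower in Mll4-labelled B-cell progenitor-like cells, 1 of 6 members where 8.68% of all genes were lower, rests on 0 counts in 143 cells. A floor of 3 counts would be 8.42 CPM there, above the control level, so a difference was not detectable at this depth.

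S100a6 was lower in HSC/MPP-like as in neutrophil-like cells of the Mll3-labelled library (log2 ratios of -0.74 and -1.52), and had opposite signs in these classes only with Mll4-labelled cells. HSC/MPP-like cells had 93.3 CPM in control (1256 counts), 55.6 in the Mll3-labelled (581 counts) and 17.9 in the Mll4-labelled library (40 counts), a log2 ratio of -2.32 to control. Both Mll4-labelled hashtags (15.3 and 23.3 CPM) lay under both control hashtags (88.5 and 100 CPM). After thinning to 2000 UMIs, 20.2% of 908 control cells had an S100a6 UMI, 11.7% of 681 Mll3-labelled and 4.21% of 380 Mll4-labelled cells, against 0.493%, 0.191% and 1.69% in erythroid progenitor-like cells, which had the lowest S100a6 level; without thinning the HSC/MPP-like shares were 59.1%, 41.9% and 8.76%, and thinning left out 0, 1 and 8 cells. S100a6 scaled from S100a8 at the neutrophil-like ratio came to 31.1% of the Mll4-labelled S100a6 counts of the class and 1.51% of the control counts, and with these counts taken off the log2 ratio was -2.80. Megakaryocyte-like cells went the same way, with 48.3, 31.3 and 9.30 CPM.

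S100a6 was below control in all 9 classes compared in the Mll3-labelled library, by log2 ratios from -0.30 to -2.45, the last in basophil/mast-like cells from 4 counts. In the Mll4-labelled library it was above control in 3 classes and below in 6, from -2.32 to 1.48. The highest value was in erythroid progenitor-like cells, at 1.97 CPM in control and 7.26 in the Mll4-labelled library (50 counts), where S100a6 scaled from S100a8 in the same way came to 77.1% of the Mll4-labelled counts. The Mll4-labelled hashtags gave 5.31 CPM (24 counts) and 3.18 CPM (7 counts) and the control hashtags 1.55 and 2.35 CPM. The rest of the 50 counts lay in cells with both hashtags or none. Outside the 9 classes, control T, NK and innate lymphoid-like cells had 486 CPM. In B-cell progenitor-like cells S100a6 was 49.8 CPM in control against 64.0 in the Mll3/4-labelled library, and there the 2 hashtags disagreed about the direction, at 87.0 and 35.1 CPM. Within that library its 4 main clusters ran from 25.4 CPM (cluster 4) to 122 CPM (cluster 20).

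S100a10, the annexin A2 partner that brings plasminogen activation to the cell surface, was spread over all classes but neutrophils. In control it was 905 CPM in T, NK and innate lymphoid-like and 755 in basophil/mast-like cells, 315 in HSC/MPP-like, 301 in B-cell progenitor-like, 288 in lymphoid-primed progenitor-like and 275 in megakaryocyte-like cells, 201 in erythroid progenitor-like, 101 in granulocyte progenitor-like and 6.44 in neutrophil-like cells. Cluster 7 of the erythroid progenitor-like cells had 550 CPM and cluster 3 had 80.3, so the class mean joins unlike cells. In the Mll4-labelled library S100a10 was below control in 9 of 9 classes, by log2 ratios from -0.66 to -2.13, and in the Mll3-labelled library in 8 of 9, from 0.11 to -0.75. Those 9 classes share 1 library on each side and are not replicates.

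In HSC/MPP-like cells S100a10 was 315 CPM in control, 226 in the Mll3-labelled and 144 in the Mll4-labelled library, the last 2.17-fold lower. The hashtags of the Mll4-labelled library gave 140 and 144 CPM and those of control 313 and 320. S100a10, S100a4 and S100a6 were the 3 members called lower in Mll4-labelled HSC/MPP-like cells (3.29% of all genes were), and 0 members were called in either direction in Mll3-labelled ones (0.364% of all genes higher, 0.919% lower). With a finer clustering (Leiden resolution 2) the HSC/MPP-like class partly split by label. A cluster led by Hlf held 633 control and 32 Mll4-labelled cells, and a cluster led by H2-Eb1 held 3 and 294. Another was shared, with 288 and 142. The label and the cluster thus cannot be fully told apart for these 3 members. The median log2 ratio of the 6 members in that class was -0.75 in the Mll4-labelled library and that of all genes 0.13. Anxa2, the partner of S100a10, was higher over all kept cells of the Mll4-labelled library, by a log2 ratio of 1.18, where S100a10 was lower by 1.48. Neutrophil-like cells, where S100a10 was lowest, were 50.2% of kept cells there and 24.5% in control. Without them the log2 ratio of S100a10 was -0.95, and their part in the Anxa2 ratio was not tested. Within Mll4-labelled HSC/MPP-like cells 0 of the 10 partners and receptors measured were called. In B-cell progenitor-like cells of the Mll3/4-labelled library Anxa2 was higher by 2.14 and S100a10 by 0.29 (368 against 301 CPM).

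S100a11, a partner of annexin A1, was the most even member. It was highest in neutrophil-like cells (1171 CPM in control, 999 in the Mll3-labelled, 1079 in the Mll4-labelled library), followed in control and Mll3-labelled cells by granulocyte progenitor-like cells (528 and 474 CPM) and in Mll4-labelled cells by monocyte/macrophage progenitor-like (378 CPM) and granulocyte progenitor-like cells (361 CPM), whose intervals overlap, and lowest in erythroid progenitor-like cells (47.4, 38.7 and 57.4 CPM). No class differed from control by more than a log2 ratio of 0.55 in either library. Over all kept cells it was 306 CPM in control, 219 in the Mll3-labelled, 573 in the Mll4-labelled and 105 in the Mll3/4-labelled library, in the order of the neutrophil-like shares. Without neutrophil-like cells its log2 ratio in the Mll3/4-labelled library was -0.58 in place of -1.54. Anxa1 was lower over all kept cells of that library by 2.56 and higher in the Mll4-labelled library by 1.65.

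**Figure D4:**
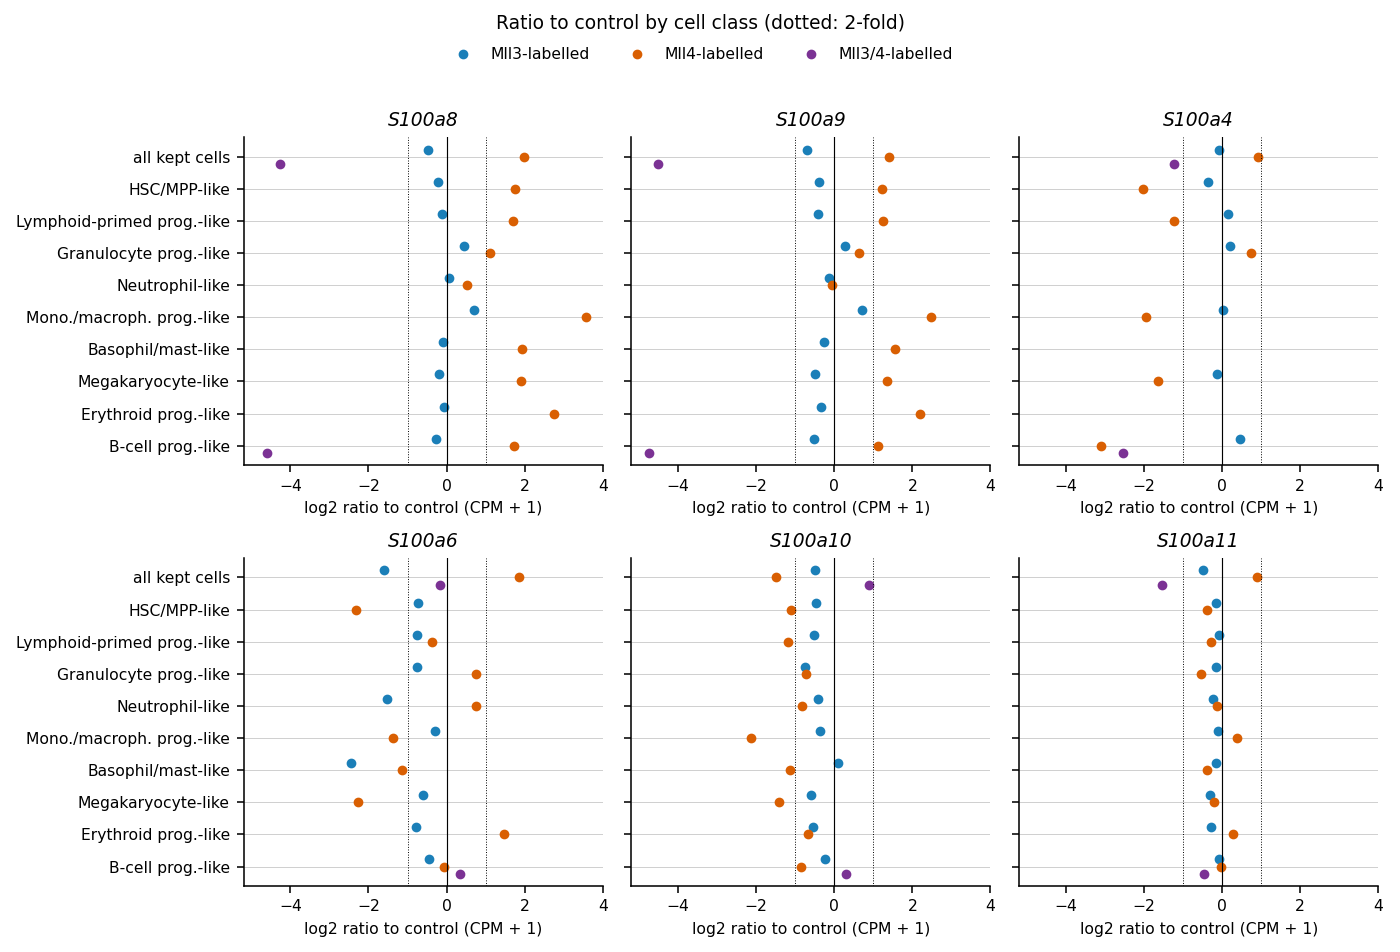
Log2 ratio of each S100 gene to control by cell class (CPM plus 1; 1 library per label; classes with at least 50 cells in both libraries). In the Mll4-labelled library S100a10 is below 0 in 9 of 9 classes and S100a8 above 0 in 9 of 9, the latter beside neutrophil markers; the Mll3/4-labelled library can be compared only in B-cell progenitor-like cells.

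One class, B-cell progenitor-like cells, can be compared across all 4 labels. There S100a8, S100a9 and S100a4 were the 3 members called lower in the Mll3/4-labelled library and 0 were called higher (9.49% of all genes were). In the Mll3-labelled library 0 members were called in either direction (0.417% of all genes higher, 1.86% lower). The class was made of clusters 16 and 19 in control, Mll3-labelled and Mll4-labelled cells and of clusters 0, 4, 20 and 22 in Mll3/4-labelled cells, so the label and the cluster cannot be told apart. Among 10 other S100 genes, S100a16 was the one that set this library apart, with 0 counts in control B-cell progenitor-like cells. A floor of 3 counts would be 0.946 CPM there. Mll3/4-labelled cells had 43.5 CPM, 46.0-fold higher than that floor. S100a16 was present in all 4 of those clusters, at 20.4 to 52.8 CPM, and under both hashtags, at 64.2 and 20.9 CPM. Over all kept cells 4 of the 10 could be measured in the Mll3/4-labelled library, 2 higher (S100a16 and S100a13, by 1.14) and 1 lower (S100a1, by 1.90).

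Of the 12 listed partners and receptors, 0 were called over all kept cells of the Mll3-labelled library (0.199% of all genes were higher and 0.46% lower). In the Mll4-labelled library 6 were called higher (5.74% of all genes) and 0 lower (2.91%), among them Tlr4 (log2 ratio 1.38), a receptor of calprotectin, Myh9 (1.07), the S100a4 partner, and Ahnak (2.23), which the S100a10 complex binds. In the Mll3/4-labelled library 3 were called higher, Anxa6, Cd36 and Tlr4 (the last by 1.02), where 12% of all genes were, and 3 lower, Anxa1, Anxa2 and Cacybp (the last by 1.24), where 11.7% were. Tlr4 was thus higher both where neutrophil-like cells were most frequent and where they were least. Of 10 measured within Mll4-labelled neutrophil-like cells 2 were higher, Anxa6 (1.83) and Anxa11 (1.27), where 2.93% of all genes were. Among Mll4-labelled cells of other classes, 0 of 10 were called in HSC/MPP-like cells, 3 of 10 were higher in monocyte/macrophage progenitor-like cells (7.3% of all genes) and 3 of 8 in B-cell progenitor-like cells (8.16%). Of the Mll3/4-labelled library, the B-cell progenitor-like class had 1 of 12 higher (9.49%), Anxa2, and 1 lower (7.38%), Anxa1.

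Over all kept cells, surface antibodies gave a view of the members that the RNA clusters had no part in. Thresholds were fitted in control and applied to every library, whatever its depth. Cells above the Gr1 threshold, a granulocyte antigen, exceeded those below it in S100a8 by log2 ratios of 7.50 in control, 7.80 in the Mll3-labelled and 6.07 in the Mll4-labelled library, and cells above the CD11b threshold by 7.93, 8.29 and 6.23. For CD117, the Kit protein, the ratios for S100a8 were -5.07, -5.13 and -2.37. S100a10 ran the other way, at -3.55, -3.67 and -3.93 for CD11b. S100a4 went with Sca1, a stem cell antigen, at 3.06, 2.40 and 3.61. These ratios are over all kept cells, and most S100a4 counts of the Mll4-labelled library lay outside HSC/MPP-like cells. Within HSC/MPP-like cells, S100a4 and S100a6 were higher in cells above the Sca1 threshold (2.27 and 1.92 in control, 2.53 and 1.96 in the Mll3-labelled, 0.76 and 0.94 in the Mll4-labelled library) and lower in cells above the CD48 threshold, an antigen absent from the most primitive stem cells (-1.90 and -1.76 in control, -1.39 and -1.38 in the Mll3-labelled, -0.35 and -0.16 in the Mll4-labelled library). The Mll4-labelled values rest on 12 S100a4 and 40 S100a6 counts.

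**Figure D5:**
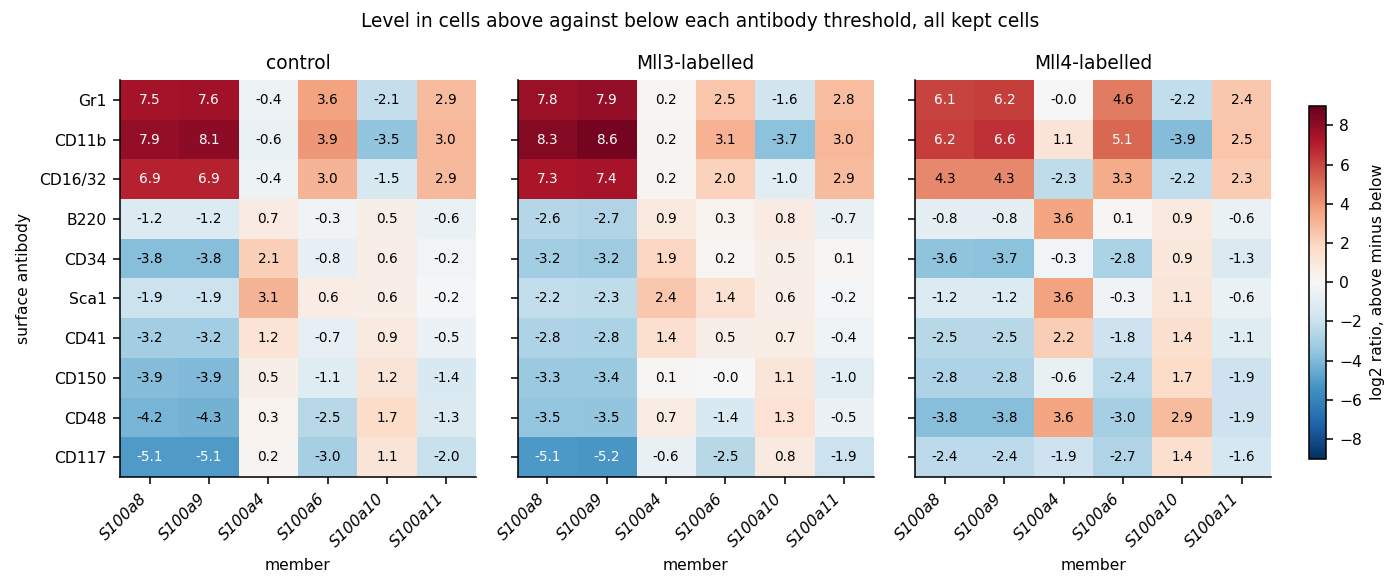
Log2 ratio of each S100 gene between cells above and below the threshold of a surface antibody, as colour and value, for all kept cells of 3 libraries. S100a8 and S100a9 go with Gr1 and CD11b (7.50 and 7.93 for S100a8 in control), S100a10 goes against CD11b (-3.55), and S100a4 goes with Sca1 (3.06).

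Across the 30 combinations of class and library with at least 50 cells, the members fell into unlike patterns. S100a8 and S100a9 were most like each other (Pearson r of 0.995 on log2 CPM plus 1, among 2969 genes compared) and next like Chil3 (0.991 and 0.992), with Ngp and Camp, neutrophil granule genes, among the first 5 of both. S100a11 was most like Arhgdib (0.953) and also like Ncf1 (0.912), a subunit of the phagocyte oxidase. S100a10 was most like Trim44 (0.933) and ran opposite to S100a8 (-0.84). S100a6 (0.816 with Cntrl) and S100a4 (0.741 with AW112010) had no close match. These values describe points that share libraries, depth and free RNA, and carry no test.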

How the data were processed

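The authors deposited raw UMI counts per gene and antibody as 10x matrices, made with Cell Ranger 6.1.2 on mm10, per the submitters' processing notes; the chemistry was 3′ version 3.1, per the labels' protocols. Cell-calling settings are not given in the sources used here. The members and gene lists were chosen with earlier results of these data known. Barcodes with at least 500 genes, 1000 UMIs and at most 10% mitochondrial UMIs were kept, and doublets were removed by score at 0.8% per 1000 cells. Cells with both hashtags or none were not removed. Cells were clustered with scanpy 1.11.5 (2000 variable genes without S100 genes, 30 components, Leiden resolution 1) and clusters were named from marker lists. The lymphoid-primed progenitor-like name depended on the clustering. With Leiden seed 1 no cluster took it. At resolution 2 a cluster of 231 cells took it, and a cluster of 1016 cells led by Ccl9, which also led the main cluster of that name, was unnamed. Counts were summed per class and library and given as CPM with exact Poisson intervals at 95%; shares have exact binomial intervals. Log2 ratios add 1 CPM; a call needs 2-fold and 20 counts, in classes with at least 50 cells in both libraries. Antibody thresholds came from 2-component mixtures fitted in control. Named genes are the 6 members, the targeted genes, listed partners and other S100 genes past 2-fold or beside their partner, and the 5 genes most like each member with a mean of at least 50 CPM. The monocyte/macrophage comparison, the cluster led by MHC class II genes and Anxa11 and Ncf1 were picked out after their values were seen. Scripts were tested on simulated data. With 1 library per label, no test between labels was made. Alternatives were other pseudocounts, TMM scaling (edgeR 4.0.16), thinning to 2000 UMIs, no doublet removal, stricter filters, single hashtags, other clusterings, a maturity split at 3 UMIs and control class shares.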

Additional observations from a re-analysis of the deposited data

Results flagged for a closer look

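S100a6 moved in opposite directions in 2 classes of the Mll4-labelled library. Its log2 ratio to control was 1.48 in erythroid progenitor-like cells (7.26 against 1.97 CPM, from 50 Mll4-labelled counts) and -2.32 in HSC/MPP-like cells (17.9 against 93.3 CPM). The Mll4-labelled erythroid progenitor-like cells had 5.31 CPM under hashtag 1 (24 counts) and 3.18 under hashtag 2 (7 counts), and control had 1.55 and 2.35. The rest of the 50 counts lay in cells with both hashtags or none. Over all classes of the Mll4-labelled library, 248 kept cells had both and 6 had none. There was 1 library on each side, and the difference between the classes was not tested. Neutrophil markers summed to 869 CPM in the Mll4-labelled erythroid progenitor-like cells and 177 in control, and to 847 and 320 CPM in HSC/MPP-like cells; their part in the result was not tested.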

How the results depend on the processing

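No paired analysis was possible because each label has 1 library. Over all kept cells, the count of members called in the Mll3-labelled library went from 1 to 3 under hashtag 1 and to 0 under hashtag 2, above the CD117 threshold and without neutrophil-like cells. In the Mll4-labelled library it went from 4 to 2 under hashtag 1 and at the control class shares, where S100a9 reversed to -0.019 from 1.40. Among Mll4-labelled neutrophil-like cells it went from 0 to 1 with no pseudocount, with thinning, with no doublet removal (S100a10 lower in each) and under hashtag 2 (S100a6 higher, by 1.12). In B-cell progenitor-like cells it went from 0 to 1 in the Mll3-labelled library under hashtag 1 (S100a4 higher), and from 3 to 1 in the Mll4-labelled library with thinning (S100a6 lower, the calprotectin pair no longer called). In monocyte/macrophage progenitor-like cells, a comparison added after seeing the data, it went from 5 to 3 with a pseudocount of 10 CPM and with thinning. The other counts of called members stayed within 1.5 times under the alternatives run: in HSC/MPP-like cells 4 to 5 in the Mll4-labelled and 0 in the Mll3-labelled library, among Mll3-labelled neutrophil-like cells 1, and with Mll3/4-labelled cells 3 to 5 over all kept cells and 2 to 3 in B-cell progenitor-like cells. Without neutrophil-like cells S100a6 in the Mll3/4-labelled library was 1.42 in place of -0.17. TMM scaling moved every Mll4-labelled ratio by -0.20 in HSC/MPP-like and -0.25 in B-cell progenitor-like cells. The S100a6 difference across the maturity split grew with the split at 3 UMIs. Of 336 alternative values of called members 25 fell under 2-fold. The causes were not tested. S100a4 is limited by depth, with 12 counts in Mll4-labelled HSC/MPP-like cells.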
